A study of Homo sapiens with 15 samples.

Results

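The genes described here are 10 genes of the oxidative and heme stress response that the transcription factor NRF2 is known to control: HMOX1, FTL, FTH1, GCLC, GCLM, NQO1, TXNRD1, SRXN1, ME1 and OSGIN1. They were chosen by name, with earlier results of these data known. All 10 were found among the 15790 genes of the deposited expression table. RNA was sequenced from 15 libraries in 5 groups of 3: fHDF/TERT166 cells alone, RPTEC/TERT1 cells with fHDF/TERT166 cells on an LN/FN-silk membrane, RPTEC/TERT1 cells alone on that membrane, both lines together on an LN/PC membrane, and RPTEC/TERT1 cells alone on LN/PC. RPTEC/TERT1 is a TERT-immortalized line of human renal proximal tubular epithelium, fHDF/TERT166 is an immortalized line of dermal fibroblasts, and the LN/FN-silk membrane is made with recombinant spider silk. The groups are called fibroblast monocultures, silk co-cultures, silk monocultures, LN/PC co-cultures and LN/PC monocultures below, and each cell type is a single line, so the libraries give no spread between donors.

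All cultures were harvested at day 14, after seeding densities of 140000 epithelial cells and 14000 fibroblasts per square centimetre, and a library pooled 3 to 8 membranes. The fibroblast samples are titled monocultures, while the extraction protocol describes basolateral fibroblasts taken from the well bottom. They are treated as monocultures here. The epithelial medium, used for the co-cultures too, held 5 µg/ml transferrin, an iron carrier, and 5 ng/ml sodium selenite, the selenium source for selenoproteins such as thioredoxin reductase. The medium of the fibroblast monocultures during the experiment is not given in the sources used here. Cells on silk were collected by scraping and those on LN/PC by cutting out the membrane, so membrane and way of harvest cannot be told apart in any comparison of silk with LN/PC. Whether the replicates came from independent cultures is not stated, and p-values therefore cover only the spread among these libraries, part of which may be technical.

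NRF2 (NFE2L2) is held low in unstressed cells by KEAP1, which hands it to a ubiquitin ligase for degradation. Oxidants, electrophiles and heme relieve that control, and NRF2 then pairs with a small MAF protein and binds antioxidant response elements near its targets. BACH1 occupies the same elements, represses HMOX1 in particular, and leaves them when it binds heme. The proximal tubule is rich in mitochondria and takes up filtered heme and iron proteins, and induction of HMOX1 and ferritin is a known protective response there.

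Promoter windows from RefSeq (GRCh38.p14) were used for 8 of the 10 genes, all but HMOX1 and FTH1. The 250 bases before each annotated start were searched on both strands for the antioxidant response element core, written as TGACNNNGC or TGAGNNNGC, and for TGACTCA, the core shared with AP-1 sites, which can lie inside either of the others. Of 35116 promoter windows of all genes, 23.9% held TGACNNNGC or TGAGNNNGC and 4.20% held TGACTCA. Among the 8, the element core was found in 5: ME1, OSGIN1, GCLM, TXNRD1 (at both of its annotated starts) and NQO1. No match in these letters was found in this window for GCLC, FTL and SRXN1. The stretches from base -150 to base -1 are shown for those with TGACNNNGC or TGACTCA, picked after the matches were seen, to let the core be read in its surroundings. They are written on the strand of the gene, with the matched core in capitals, and the files' own genome build is not given in the sources used here.
ME1, chr6:83431052-83431201 (minus strand): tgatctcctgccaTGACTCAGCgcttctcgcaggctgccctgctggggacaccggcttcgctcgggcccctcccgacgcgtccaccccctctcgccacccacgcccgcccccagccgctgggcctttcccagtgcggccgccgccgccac
OSGIN1, chr16:83953090-83953239 (plus strand): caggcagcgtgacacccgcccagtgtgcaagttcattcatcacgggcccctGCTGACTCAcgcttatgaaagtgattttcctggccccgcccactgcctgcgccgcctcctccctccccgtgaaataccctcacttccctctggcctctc
GCLM, chr1:93909431-93909580 (minus strand): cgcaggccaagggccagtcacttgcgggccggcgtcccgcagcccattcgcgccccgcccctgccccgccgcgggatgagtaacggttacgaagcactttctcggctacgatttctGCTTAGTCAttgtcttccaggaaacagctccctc
TXNRD1, upstream start, chr12:104215629-104215778 (plus strand): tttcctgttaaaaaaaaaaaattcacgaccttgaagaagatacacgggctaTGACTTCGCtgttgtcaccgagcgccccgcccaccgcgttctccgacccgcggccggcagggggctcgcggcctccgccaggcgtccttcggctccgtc
TXNRD1, downstream start, chr12:104286882-104287031 (plus strand): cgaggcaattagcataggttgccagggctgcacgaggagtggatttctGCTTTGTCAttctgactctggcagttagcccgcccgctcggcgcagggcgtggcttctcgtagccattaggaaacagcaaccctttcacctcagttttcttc
In ME1 the core TGACTCAGC lies at -137 to -129 and holds TGACTCA. In OSGIN1 the core reads TGAGTCAGC on the opposite strand at -99 to -91 and overlaps TGACTCA. In GCLM and at the downstream start of TXNRD1 it also lies on the opposite strand, as TGACTAAGC and TGACAAAGC. A match describes the sequence only.

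Values are normalized counts obtained by turning the deposited log2 values back to a linear scale. They are not divided by gene length, so levels are compared between groups for 1 gene and not between genes. In units of 1e6, the normalized counts of a library summed to between 9.08 and 12.7. Each comparison was tested with limma-trend over all genes that passed a filter, and a gene is called when its Benjamini-Hochberg adjusted p is under 0.05. The 10 genes all passed the filter of at least 10 normalized counts in at least 3 libraries. Of 18 fibroblast markers, 0 were at 0 in the fibroblast libraries and in the LN/PC co-cultures, 2 to 6 in the silk co-cultures, 7 or 8 in the silk monocultures and 7 to 9 in the LN/PC monocultures. Of 17 measured epithelial markers, 11 to 13 were at 0 in the fibroblast libraries and 0 in all other libraries. Mitochondrially encoded transcripts took 5.63% to 6.54% of the counts in silk co-cultures and 4.23% to 6.58% in silk monocultures, against 2.03% to 3.04% in LN/PC co-cultures and 1.50% to 3.80% in LN/PC monocultures.

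**Figure D1:**
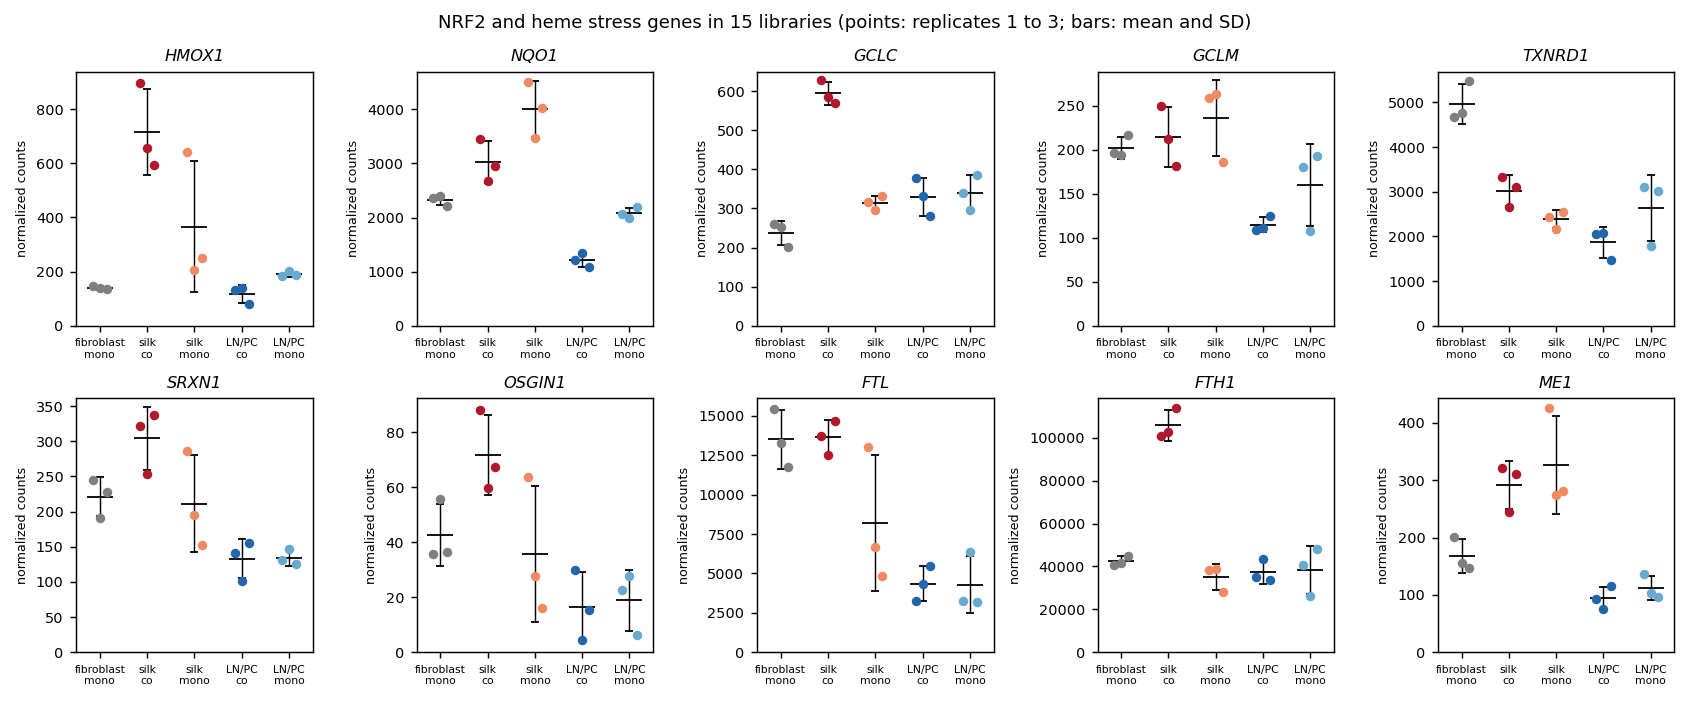
Normalized counts (y axis, linear from 0) of the 10 genes in fibroblast monocultures, silk co-cultures, silk monocultures, LN/PC co-cultures and LN/PC monocultures; points are libraries and bars the mean and SD of 3. In each of the 10 panels the 3 silk co-culture points lie above the 3 LN/PC co-culture points. Only for FTH1 and GCLC do they lie above the points of all other groups.

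The co-cultures on silk and on LN/PC were compared first, to ask how the stress genes differed with the membrane when fibroblasts were present. On silk all 10 genes were higher, and each of the 10 had its 3 silk libraries above its 3 LN/PC libraries. The fold ranged from 1.64 for TXNRD1 to 6.19 for HMOX1, with a median log2 difference of 1.41 against 0.03 over all genes tested. Of 14433 genes tested, 18.5% were called higher and 17.6% lower on silk, and 27.5% had every silk library above every LN/PC library. Because the 10 were chosen with earlier results of these data known, their count is not independent support.

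Among the heme and iron genes, HMOX1, which encodes heme oxygenase 1, the enzyme that opens the heme ring and frees its iron, had 896, 657 and 594 normalized counts in silk co-cultures 1 to 3, against 132, 138 and 79.1 in those on LN/PC. The lowest silk library lay more than 4 times above the highest LN/PC library, and the log2 difference was 2.63 ± 0.33 (SE, limma adjusted p = 1.95e-05). FTH1, the ferritin heavy chain that oxidizes iron for storage, had 100873, 102645 and 114059 in silk co-cultures and 35115, 43655 and 33612 in LN/PC co-cultures. The 3 silk values were close together, and the difference was 1.51 ± 0.29 (adjusted p = 0.000967). FTL, the ferritin light chain of the same storage shell, had 13717, 12507 and 14691 in silk co-cultures against 3249, 4323 and 5475 in LN/PC co-cultures, a difference of 1.68 ± 0.32 (adjusted p = 0.000835). Both ferritin genes have processed pseudogenes that can take or lend reads, so their values carry that uncertainty; 7 such pseudogenes were in the table, none above 23.1 normalized counts in any library. Translation of ferritin mRNA is also known to be set by iron, which RNA counts do not show.

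The 2 subunits of glutamate cysteine ligase, which makes the precursor of glutathione, were both higher. GCLC, the catalytic subunit, had 627, 585 and 571 in silk co-cultures and 377, 331 and 281 in LN/PC co-cultures, a log2 difference of 0.86 ± 0.16 (adjusted p = 0.00078). GCLM, the modifier subunit, had 249, 212 and 182 in silk co-cultures against 108, 111 and 124 in LN/PC co-cultures, with a difference of 0.89 ± 0.24 (adjusted p = 0.00932). For both genes the silk and LN/PC libraries stayed apart, but for neither as widely as for HMOX1.

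Of the enzymes that use or supply NADPH, NQO1, the quinone reductase a classic NRF2 target, had 3442, 2679.7 and 2961 in silk co-cultures and 1215, 1343 and 1084 in LN/PC co-cultures, a log2 difference of 1.32 ± 0.15 (adjusted p = 6.49e-06). ME1, the cytosolic malic enzyme that makes NADPH, had 322, 244 and 310.0 in silk co-cultures against 93.5, 74.7 and 115 in LN/PC co-cultures (1.63 ± 0.24, adjusted p = 7.33e-05). SRXN1, sulfiredoxin, which restores overoxidized peroxiredoxins, had 321, 254 and 338 in silk co-cultures against 141, 102 and 155 in LN/PC co-cultures (1.20 ± 0.24, adjusted p = 0.00129). The silk libraries lay clearly higher for all 3 genes. TXNRD1, the cytosolic thioredoxin reductase, a selenoprotein, differed least, with 3321, 2656 and 3099 in silk co-cultures against 2055, 2072 and 1465 in LN/PC co-cultures (0.71 ± 0.20, adjusted p = 0.0124). Its call ended without silk co-culture 1 (adjusted p = 0.052) or without LN/PC co-culture 3 (adjusted p = 0.0581). OSGIN1, an oxidative stress induced growth inhibitor, was low, with 88.1, 59.9 and 67.3 in silk co-cultures and 29.7, 4.50 and 15.5 in LN/PC co-cultures, and its difference of 2.35 ± 0.63 (adjusted p = 0.00867) had the widest error of the 10. The OSGIN1 difference was 0.89 with the deposited log2 values, 1.67 without LN/PC co-culture 2, 2.91 without LN/PC co-culture 1 and 3.22 with the fibroblast part subtracted.

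The co-cultures differed in their fibroblast content alongside these genes. From 112 fibroblast-restricted genes, fibroblast RNA was estimated at 0.0239, 0 and 0.113% of silk co-cultures 1 to 3, against 13.9, 9.81 and 15.2% of those on LN/PC. The estimate takes these genes to keep their fibroblast monoculture level, which was not tested. The 18 fibroblast markers summed to 64442 to 68648 normalized counts in silk co-cultures and 169772 to 257709 in LN/PC co-cultures. They summed to 700727 to 768195 in fibroblasts, 37041 to 42092 in silk and 27106 to 31024 in LN/PC monocultures. Taken the same way, these sums would give larger shares than the 112 genes on both membranes, so the shares are uncertain. In bulk samples fewer cells of a type and less RNA per cell cannot be told apart. With the estimated fibroblast part subtracted from each co-culture library, 10 of the 10 genes were still called higher on silk, where 20.1% of 14261 genes were called higher (2868 genes, with 2145 called lower). Subtraction moved the share of higher genes among all calls to 57.2%, against 51.3% without it. The part of the mitochondrial share, which also differed between the membranes, was not tested.

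**Figure D2:**
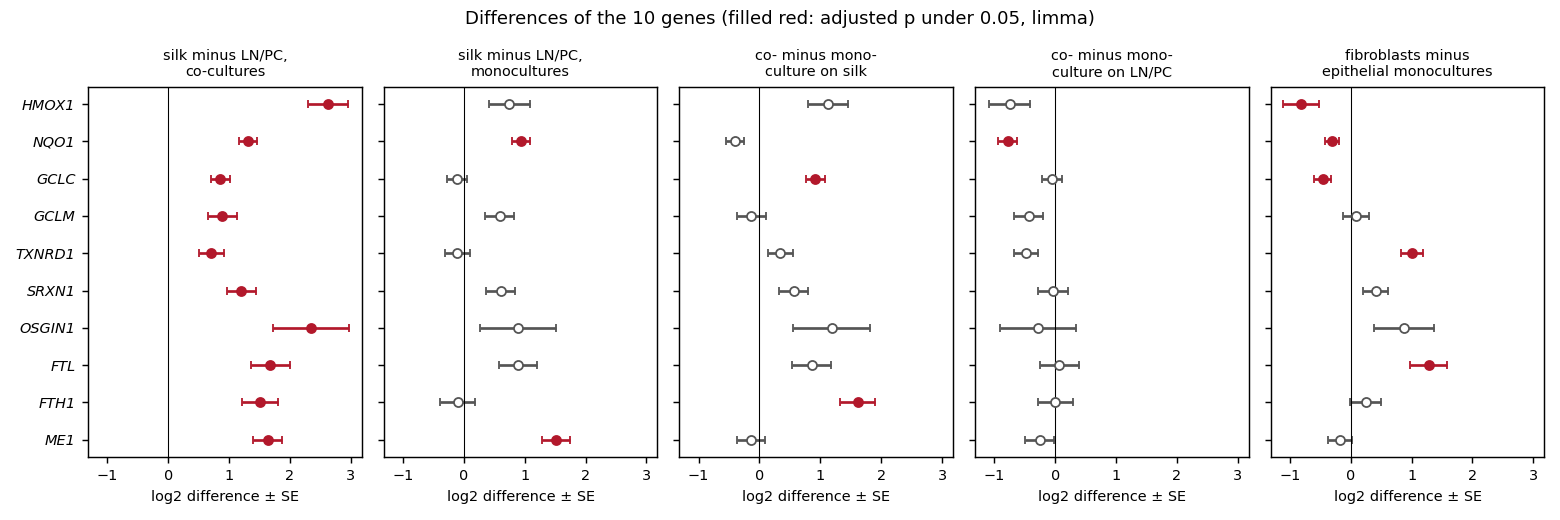
Log2 differences (x axis, with SE) of the 10 genes in 5 comparisons; red filled points were called by limma at an adjusted p under 0.05 and open points were not. In the comparison of co-cultures by membrane 10 of 10 points are filled and lie above 0, against 2 of 10 in the comparison of monocultures by membrane. Over all genes tested 18.5% were called higher on silk between co-cultures and 5.88% between monocultures. The interaction, not drawn here, was called positive for 3 of the 10 genes and for 3.15% of all genes.

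The regulators of the pathway moved in both directions in that comparison. NFE2L2, which encodes NRF2 itself, had 1731, 1665 and 1577 in silk co-cultures and 4570.0, 4708 and 2839 in LN/PC co-cultures, and it fell on silk (-1.25 ± 0.25, adjusted p = 0.00118). NRF2 is known to be controlled mainly through its protein, which these data do not measure. KEAP1 averaged 485 ± 17.7 on silk, against 574 ± 82.9 on LN/PC (SD, n = 3), and was not called (-0.23 ± 0.15). BACH1 averaged 375 ± 53.6 on silk, against 266 ± 64.4 on LN/PC, and was not called either (0.51 ± 0.23, adjusted p = 0.0863). The small MAF genes, whose products pair with NRF2 and BACH1, rose for MAFG (345, 350.2 and 293 in silk co-cultures against 119, 89.1 and 117 in LN/PC co-cultures, 1.60 ± 0.23) and, with overlapping libraries, for MAFF (1072, 824 and 483 in silk co-cultures against 505, 453 and 401 in LN/PC co-cultures, 0.74 ± 0.28), and so did SQSTM1 (0.98 ± 0.17), whose product p62 sequesters KEAP1. Among 12 regulators 3 were higher and 2 lower, with RBX1, a part of the KEAP1 ubiquitin ligase, the second lower one (-0.62 ± 0.18).

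Other genes of the pathway went both ways. The 7 lists besides the 10 genes held 102 tested entries, TRIM16L being listed under 2 identifiers, of which 29 were higher and 16 lower on silk, with a median log2 difference of 0.18 against 0.03 over all genes. Of all genes 18.5% were higher and 17.6% lower. Among 19 detoxification entries, 9 were higher and 1 lower, led by UGT1A6, a glucuronosyltransferase (296 ± 14.9 on silk against 16.7 ± 10.3 on LN/PC, 4.21 ± 0.31) and TRIM16L (1.57 ± 0.30). UGT1A6 shares exons with its UGT1A neighbours and TRIM16L is a near copy of part of TRIM16, so their reads may be shared. Of 19 heme genes, 5 were higher and 4 lower. Higher were ALAS1, the first enzyme of heme synthesis (0.74 ± 0.17), ABCB6 (0.52 ± 0.19), the heme transporters SLC48A1 (0.82 ± 0.21) and FLVCR1 (1.15 ± 0.30), and BLVRB, which reduces biliverdin (0.75 ± 0.23). Among the lower were the heme synthesis enzymes UROS (-1.17 ± 0.19) and UROD (-0.67 ± 0.18) and the constitutive heme oxygenase HMOX2, at 379.8, 387 and 405 in silk co-cultures against 981, 913 and 629 in LN/PC co-cultures (-1.08 ± 0.23, adjusted p = 0.00193). Of 18 glutathione genes 2 were higher and 3 lower, including the glutathione transferase GSTA4 (-1.26 ± 0.21), of 14 thioredoxin and peroxide genes 4 were higher and 3 lower, and of 5 NADPH genes 2 were higher and 0 lower. Of 15 iron genes 4 were higher and 3 lower. HEPH, a copper ferroxidase, was lower at 0, 0 and 5.46 in silk co-cultures against 547, 219.9 and 457 in LN/PC co-cultures, and it averaged 968 ± 191 in fibroblasts and 0 in both epithelial monocultures.

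**Figure D3:**
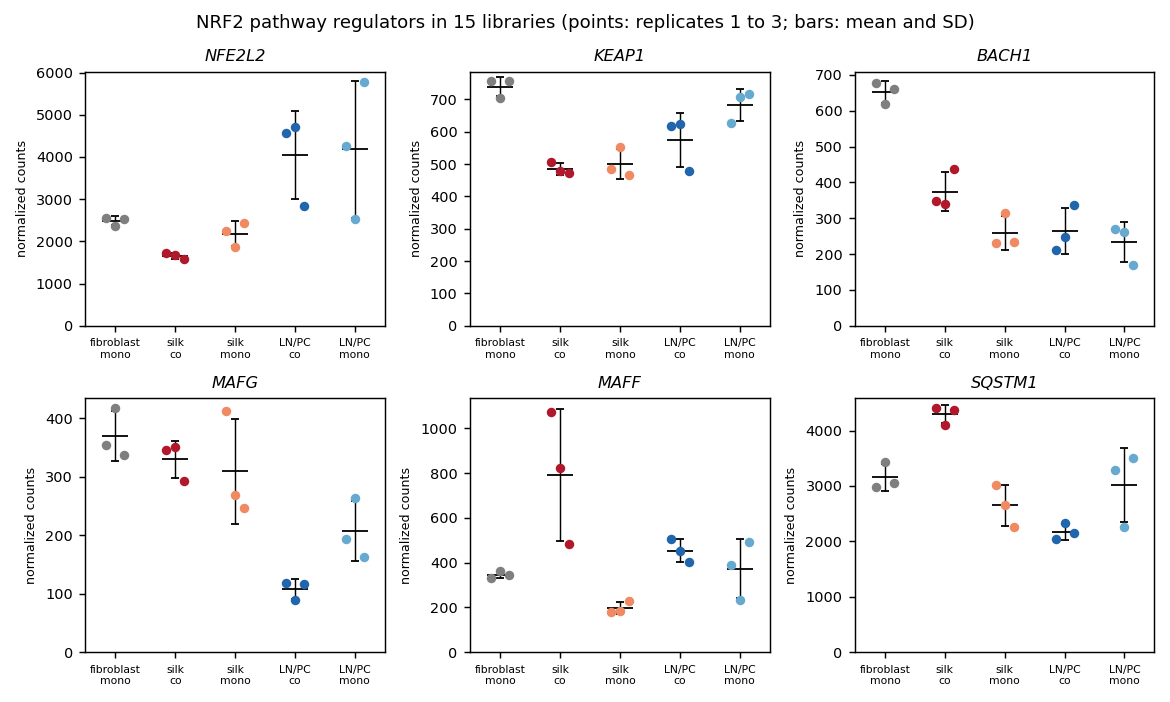
Normalized counts (y axis, linear from 0) of 6 regulators of the pathway in the 5 groups; points are libraries and bars the mean and SD of 3. NFE2L2 is lower in silk co-cultures than in LN/PC co-cultures, while MAFG and SQSTM1 are higher, KEAP1 overlaps between them, and BACH1 does not overlap but lies close.

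Monocultures on silk and on LN/PC were compared to ask what the membrane changed when no fibroblasts were present. Of the 10 genes, 2 rose on silk and 0 fell. ME1 had 425, 273 and 281 in silk monocultures, against 136, 104 and 97.0 in LN/PC monocultures, a 2.86-fold difference (1.52 ± 0.24 log2 units, SE, limma adjusted p = 0.000895). NQO1 had 4508, 3478 and 4021 in silk monocultures, against 2069, 1992 and 2189 in LN/PC monocultures (0.93 ± 0.15, adjusted p = 0.00113). The libraries of the groups did not overlap for either gene, and both were called under every alternative run. HMOX1 and SRXN1 also had every silk library above every LN/PC library, as had 14.3% of 13735 genes filtered over these 6 libraries. Of all genes tested, 5.88% were called higher and 5.79% lower on silk, and the median log2 difference was 0.68 over the 10 genes and 0.03 over all genes. These 1685 calls became 3208 without LN/PC monoculture 2 and 695 without LN/PC monoculture 3. With libraries rescaled to 1 upper quartile 60.5% of the called genes were higher, against 50.4% with the authors' scaling.

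The other 8 genes were not called between the monocultures. HMOX1 had 643, 206 and 249.9 in silk monocultures 1 to 3, against 185, 202 and 186 in LN/PC monocultures (0.75 ± 0.33, adjusted p = 0.145). The 3 silk libraries lay above the 3 LN/PC libraries, but silk monoculture 1 stood far above the rest. FTL had 13055, 6698 and 4856 in silk monocultures, against 3251, 6391 and 3214 in LN/PC monocultures (0.89 ± 0.32, adjusted p = 0.078), with overlap. FTL became called without silk monoculture 3 (adjusted p = 0.0373) and without LN/PC monoculture 2 (adjusted p = 0.00856). SRXN1 averaged 211 ± 68.6 on silk and 134 ± 11.0 on LN/PC (SD, n = 3), a difference of 0.61 ± 0.24. GCLM averaged 236 ± 43.4 on silk, against 160.3 ± 46.3 on LN/PC (0.59 ± 0.24), while OSGIN1 had 35.8 ± 24.8 on silk, against 18.8 ± 11.1 on LN/PC (0.89 ± 0.63). The libraries of silk lay on average higher for these 3 genes without passing the test. GCLC (-0.11 ± 0.16), TXNRD1 (-0.11 ± 0.20) and FTH1 (-0.10 ± 0.29) had differences smaller than their errors.

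NFE2L2 fell on silk in the monocultures too, with 2244, 1869 and 2442 in silk monocultures against 4251, 2528 and 5765 in LN/PC monocultures (-0.87 ± 0.25, adjusted p = 0.0336), while KEAP1 (-0.45 ± 0.15, adjusted p = 0.0611) and BACH1 (0.17 ± 0.23) were not called. Of the 102 other pathway entries 7 were higher and 8 lower. Higher on silk were UGT1A6 (1.42 ± 0.31), TRIM16L (1.07 ± 0.30), the microsomal glutathione transferase MGST1 (0.87 ± 0.17) and the mitochondrial peroxiredoxin PRDX3 (0.87 ± 0.19). Lower were the metal importer SLC39A14 (-1.20 ± 0.25), the ferroxidase ceruloplasmin CP (-1.17 ± 0.19), the fatty aldehyde dehydrogenase ALDH3A2 (-1.14 ± 0.19) and GPX4, the lipid peroxide reductase (-0.96 ± 0.21).

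Silk monoculture 1 had the highest value of its group for 6 of the 10 genes and the lowest for 0. Relative to the mean of the other 2 silk monocultures its median log2 difference over the 10 genes was 0.44, against 0.01 over all genes. SLC7A11, the cystine importer that feeds glutathione synthesis and another NRF2 target, was at 300.3, 28.8 and 26.9 in silk monocultures 1 to 3. OSGIN1 was at 63.5, 27.7 and 16.0 and SRXN1 at 287, 196 and 152 in the same libraries, so the first library was the highest for each of these genes. The comparison of silk co-cultures with silk monocultures is therefore also given without that library for HMOX1 and FTL, whose calls then changed.

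**Figure D4:**
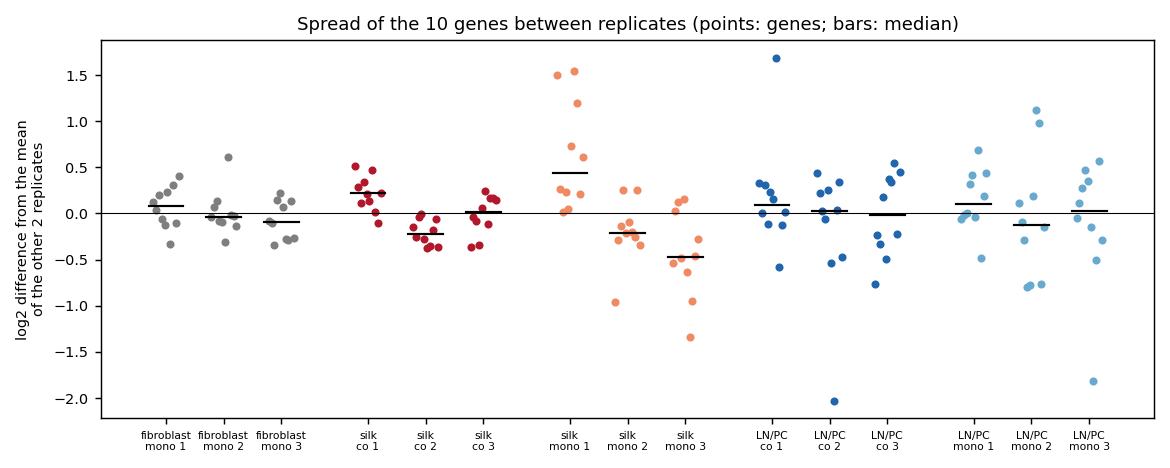
Log2 difference of each of the 10 genes (points) from the mean of the other 2 libraries of its group (y axis), for 15 libraries (x axis), with the median as a bar. The points of silk monoculture 1 lie at or above 0, with a median of 0.44, and those of silk monoculture 3 have the lowest median of all libraries, -0.48.

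Co-cultures on silk were compared with monocultures on silk to ask what adding fibroblasts did there. FTH1 and GCLC rose and none of the 10 fell. FTH1 had the largest change, 3.05-fold, with 100873, 102645 and 114059 in silk co-cultures and 38146, 38878 and 27929 in silk monocultures (1.61 ± 0.29 log2 units, SE, limma adjusted p = 0.00406). GCLC had 627, 585 and 571 in silk co-cultures and 315, 295 and 332 in silk monocultures (0.92 ± 0.16, adjusted p = 0.00332). The groups did not overlap for either gene, and both were called under every alternative run. TXNRD1 too had every co-culture library above every monoculture library, as had 15.1% of 13752 genes filtered over these 6 libraries. NQO1 had every one below, as had 12.8%. Of all genes tested, 2.91% were called higher and 0.866% lower in silk co-cultures, so 77.1% of the calls were higher, or 66.1% with upper quartile rescaling. The median log2 difference was 0.71 over the 10 genes and 0.00 over all genes. Fibroblast RNA was estimated at no more than 0.113% of these co-cultures, while the 18 fibroblast markers summed to 64442 to 68648 in silk co-cultures and 37041 to 42092 in silk monocultures, without overlap. The part of the marker difference in these results was not tested.

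HMOX1 was not called in this comparison (1.13 ± 0.33, adjusted p = 0.0706), with 896, 657 and 594 in silk co-cultures against 643, 206 and 249.9 in silk monocultures. Silk monoculture 1 overlapped the co-cultures, and without it HMOX1 was called (1.63 ± 0.25, adjusted p = 0.00143). FTL likewise had 13717, 12507 and 14691 in silk co-cultures against 13055, 6698 and 4856 in silk monocultures (0.86 ± 0.32, adjusted p = 0.161) and was called without that library (1.25 ± 0.28, adjusted p = 0.0209), so that 4 of the 10 genes were then called. Over all genes, 402 of 14383 were then called higher and 157 lower. That library was singled out for its high values, and leaving out others lowered the differences, HMOX1 to 0.81 ± 0.34 without silk monoculture 2 (adjusted p = 0.297) and FTL to 0.54 ± 0.32 without silk monoculture 3 (adjusted p = 0.504). NQO1 went the other way without being called, with 3442, 2679.7 and 2961 in silk co-cultures against 4508, 3478 and 4021 in silk monocultures (-0.40 ± 0.15, adjusted p = 0.158). The differences of SRXN1 (0.56 ± 0.24), OSGIN1 (1.18 ± 0.63), TXNRD1 (0.34 ± 0.20), GCLM (-0.13 ± 0.24) and ME1 (-0.14 ± 0.24) were not called. With 1 library left out SRXN1 ranged from 0.35 to 0.81 and OSGIN1 from 0.74 to 1.70, and neither was called.

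Of the 102 other pathway entries 6 rose in silk co-cultures and 0 fell. MAFF had 1072, 824 and 483 in silk co-cultures and 180.5, 182 and 229 in silk monocultures (1.94 ± 0.28, adjusted p = 0.000559). SQSTM1 (0.71 ± 0.17), the amino acid transporter subunit SLC3A2 (1.26 ± 0.30), the iron reductase STEAP3 (0.84 ± 0.18), UGDH, which makes UDP-glucuronate (0.80 ± 0.19), and the glutaredoxin GLRX (0.75 ± 0.16) were the others. NFE2L2 (-0.39 ± 0.25), KEAP1 (-0.04 ± 0.15) and BACH1 (0.53 ± 0.23) were not called.

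On LN/PC, co-cultures were compared with monocultures to ask the same question on that membrane. NQO1 fell and none of the 10 rose. NQO1 had 1215, 1343 and 1084 in LN/PC co-cultures and 2069, 1992 and 2189 in LN/PC monocultures (-0.78 ± 0.15 log2 units, SE, limma adjusted p = 0.00172), and its libraries did not overlap. Of all genes tested, 7.80% were called higher and 4.72% lower in LN/PC co-cultures, and the median log2 difference was -0.27 over the 10 genes and -0.041 over all genes. HMOX1 had 132, 138 and 79.1 in LN/PC co-cultures and 185, 202 and 186 in LN/PC monocultures, also without overlap, and was not called (-0.75 ± 0.33, adjusted p = 0.158). Every co-culture library lay below every monoculture library for 12.2% of 13958 genes filtered over these 6 libraries. TXNRD1 had 2055, 2072 and 1465 in LN/PC co-cultures against 3110.3, 1789 and 3019 in LN/PC monocultures (-0.48 ± 0.20) and GCLM 108, 111 and 124 in LN/PC co-cultures against 180.3, 107 and 193 in LN/PC monocultures (-0.44 ± 0.24), with LN/PC monoculture 2 the lowest of its group for both. Without that library TXNRD1 (adjusted p = 0.0073) and GCLM (adjusted p = 0.0477) were called lower, which made 3 genes. Over all genes, 853 of 14390 were then called lower, against 681 of 14433 with every library. The differences of OSGIN1 (-0.28 ± 0.63), ME1 (-0.26 ± 0.24), GCLC (-0.05 ± 0.16), SRXN1 (-0.04 ± 0.24), FTL (0.07 ± 0.32) and FTH1 (0.00 ± 0.29) were not called.

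LN/PC co-cultures held fibroblast RNA, so the measured levels were set beside those that mixing LN/PC monocultures and fibroblasts at each library's estimated share would give. The shares were those from the 112 genes, and the larger shares that the 18 markers would give were not tried. HMOX1 averaged 116 normalized counts against 184 from mixing, with ratios of measured to mixed of 0.432 to 0.744 over the 3 libraries. The ratios were 0.512 to 0.638 for NQO1, 0.490 to 0.723 for TXNRD1, 0.652 to 0.747 for GCLM, 0.584 to 0.963 for FTL and 0.634 to 0.950 for ME1, so all 3 libraries lay below the mixed level for each of these 6 genes. Over all genes tested, 33.8% had all 3 libraries below the mixed level. For FTH1 (0.863 to 1.13), GCLC (0.866 to 1.16), SRXN1 (0.714 to 1.05) and OSGIN1 (0.213 to 1.34) the libraries fell on both sides of it. With the fibroblast part subtracted TXNRD1 was called lower in LN/PC co-cultures beside NQO1 (-0.95 ± 0.25, adjusted p = 0.0292), where 4.63% of all genes were called lower.

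Of the 102 other pathway entries 10 were higher and 10 lower in LN/PC co-cultures. HEPH (408 ± 169 in LN/PC co-cultures, 0 in each LN/PC monoculture library), CYBRD1, a membrane reductase of iron (1.59 ± 0.16), PRDX4 (1.31 ± 0.22) and thioredoxin TXN (1.09 ± 0.25) had the largest increases among those that averaged 100 or more in whichever group was higher. These 4 averaged 968 ± 191, 8851 ± 429, 1398 ± 60.6 and 767 ± 70.0 in fibroblasts (SD, n = 3). In LN/PC co-cultures CYBRD1, PRDX4 and TXN averaged 878 ± 176, 1426 ± 119 and 624 ± 205. Mixed levels were not worked out for these 4 genes, so the part of fibroblast RNA in their increases was not tested. The mitochondrial superoxide dismutase SOD2 (-2.00 ± 0.49), the secreted glutathione peroxidase GPX3 (-1.03 ± 0.27), the epoxide hydrolase EPHX1 (-1.02 ± 0.20) and MAFG (-0.91 ± 0.23) had the largest decreases among those that averaged 100 or more in whichever group was higher. SOD2 had 1477, 2091 and 1556 in LN/PC co-cultures and 10314, 1933 and 15445 in LN/PC monocultures, so LN/PC monoculture 2 lay within the co-culture range and the decrease rests on the other 2 monocultures. UGT1A6, just under that level and named after its values were seen, fell further, with 28.5, 10.0 and 11.6 in LN/PC co-cultures and 115, 93.9 and 84.0 in LN/PC monocultures (-2.61 ± 0.31, adjusted p = 1.15e-05). UGT1A6 was at 0 in each fibroblast library. NFE2L2 (-0.01 ± 0.25), KEAP1 (-0.26 ± 0.15) and BACH1 (0.19 ± 0.23) were not called.

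Whether adding fibroblasts acted differently on the 2 membranes was tested with the membrane by co-culture interaction, the co-culture effect on silk minus that on LN/PC. Fibroblast RNA was estimated at no more than 0.113% of silk co-cultures, against 9.81 to 15.2% of those on LN/PC. The interaction cannot tell the membrane apart from this difference or from the way of harvest. The interaction was called for HMOX1 (1.88 ± 0.47 log2 units, SE, limma adjusted p = 0.0193), FTH1 (1.61 ± 0.41, adjusted p = 0.023) and GCLC (0.97 ± 0.23, adjusted p = 0.0138), all positive. Of all genes tested, 3.15% had a positive and 4.59% a negative called interaction, and its median was 0.80 over the 10 genes and 0.03 over all genes. TXNRD1 (0.82 ± 0.29, adjusted p = 0.0983), FTL (0.79 ± 0.45), OSGIN1 (1.46 ± 0.89), SRXN1 (0.60 ± 0.34), NQO1 (0.38 ± 0.21), GCLM (0.30 ± 0.34) and ME1 (0.11 ± 0.33) were not called. Among regulators MAFF (1.59 ± 0.39) and SQSTM1 (1.15 ± 0.24) had positive called interactions. NFE2L2 (-0.38 ± 0.35), KEAP1 (0.22 ± 0.21) and BACH1 (0.35 ± 0.32) were not called, and over the 102 other entries 5 were positive and 6 negative. Among those that averaged 100 or more in their highest group the positive ones were led by UGT1A6 (2.79 ± 0.43), MAFF and SLC39A14 (1.53 ± 0.36), the negative ones by HEPH, TXN (-1.41 ± 0.35), GSTA4 (-1.21 ± 0.30) and CYBRD1 (-1.12 ± 0.23). Single libraries decided the 3 calls: HMOX1 was lost without silk monoculture 2 or 3, silk co-culture 1 or LN/PC co-culture 3, FTH1 without silk monoculture 3, silk co-culture 2 or 3 or LN/PC co-culture 1, and GCLC without LN/PC co-culture 3, at adjusted p values of 0.0524 to 0.0738. Only 1 of the 10 genes was called without silk monoculture 3 and only 1 without LN/PC co-culture 3, and with the replicate number as a block FTH1 had an adjusted p of 0.0523. TXNRD1 gained a call without LN/PC monoculture 2 (1.08 ± 0.23, adjusted p = 0.00555), where 643 of 14390 genes had a positive called interaction.

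Fibroblast monocultures were compared with the mean of the epithelial monocultures to place the 10 genes in each cell type. In fibroblasts 2 of the 10 were higher and 3 lower, where 28.0% of 14502 genes tested were called higher and 30.3% lower. The median log2 difference was 0.17 over the 10 genes and -0.024 over all genes. TXNRD1 had 4674, 4750.1 and 5477 in fibroblasts, against 2437, 2159 and 2554 in silk and 3110.3, 1789 and 3019 in LN/PC monocultures (1.01 ± 0.18 log2 units, SE, limma adjusted p = 0.000436). FTL had 15465, 13291 and 11766 in fibroblasts, against 13055, 6698 and 4856 in silk and 3251, 6391 and 3214 in LN/PC monocultures (1.28 ± 0.31, adjusted p = 0.00388). Both were called under every alternative run. HMOX1 had 149, 138 and 135 in fibroblasts and was lower than in the epithelial monocultures (-0.82 ± 0.30, adjusted p = 0.0345), as were GCLC (259, 252 and 201, -0.46 ± 0.14, adjusted p = 0.0169) and NQO1 (2358, 2399 and 2214, -0.31 ± 0.11, adjusted p = 0.0367). NQO1 in fibroblasts lay between the silk and the LN/PC monocultures, so its lower call rests on the average of the 2 groups. The calls of HMOX1 (adjusted p up to 0.0666), NQO1 (up to 0.172) and GCLC (0.122) ended when 1 library was left out. Without fibroblast library 3 only TXNRD1 and FTL were called, without fibroblast library 2 or LN/PC monoculture 1 only these and GCLC.

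The other 5 genes were not called between the cell types. They were SRXN1 (221 ± 27.7 in fibroblasts, SD, n = 3, 0.41 ± 0.20), OSGIN1 (42.6 ± 11.3, 0.88 ± 0.50), FTH1 (42465 ± 2366, 0.24 ± 0.26), GCLM (203 ± 12.5, 0.09 ± 0.21) and ME1 (168 ± 29.1, -0.18 ± 0.20). SRXN1 was called without silk monoculture 1 (adjusted p = 0.0248). BACH1 was higher in fibroblasts (652 ± 30.3 against 260.0 ± 47.4 in silk and 234 ± 56.1 in LN/PC monocultures, 1.42 ± 0.18, adjusted p = 3.08e-05), as was KEAP1 (0.34 ± 0.11), while NFE2L2 was not called (-0.24 ± 0.21). Of the 102 other entries 27 were higher and 33 lower in fibroblasts. Higher were HEPH, CYBRD1 (4.70 ± 0.10), GSTM2 (3.62 ± 0.32), whose reads may be shared with other GSTM genes, and SLC7A11 (554, 490.2 and 438 in fibroblasts, 3.43 ± 0.66). Lower were GGT1, the brush border enzyme that breaks down glutathione (0.397 ± 0.366 in fibroblasts against 2094 ± 413 in silk and 2519 ± 197 in LN/PC monocultures), CP (14.6 ± 10.3 in fibroblasts against 4555 ± 275 in silk and 10374 ± 1717 in LN/PC monocultures), UGT1A6 (0 in each fibroblast library) and GPX3 (-5.37 ± 0.43).

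Set in order over the 5 groups, the 10 genes fell into differing patterns. Silk co-cultures had the highest mean for HMOX1, GCLC, SRXN1, OSGIN1, FTL and FTH1, silk monocultures for NQO1, GCLM and ME1, and fibroblasts for TXNRD1. LN/PC co-cultures had the lowest mean for 7 of the 10, the exceptions being FTL (LN/PC monocultures), FTH1 (silk monocultures) and GCLC (fibroblasts). Among the 7, their libraries overlapped those of the next higher group for HMOX1, GCLM, SRXN1, OSGIN1 and ME1. They lay apart from it for NQO1 and TXNRD1, although for TXNRD1 they overlapped the LN/PC monocultures. The library ranges of the 2 highest groups overlapped for HMOX1, GCLM, FTL and ME1. For FTH1 the 4 groups below silk co-cultures overlapped each with the next in order, from 42465 ± 2366 in fibroblasts to 34984 ± 6121 in silk monocultures. For NQO1 each group was apart from the next, in the order silk monocultures, silk co-cultures, fibroblasts, LN/PC monocultures and LN/PC co-cultures. The highest group mean was 2.06 times the lowest for GCLM, the smallest ratio of the 10, and 6.15 times for HMOX1, the largest.

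The genes whose profiles were most like those of HMOX1 and NQO1 were found over the 15 libraries among 10183 genes with a mean of at least 100, by the root mean square difference of log2 values centred on each gene's mean. Nearest to HMOX1 were NPC1, the lysosomal cholesterol transporter (0.467), PPP1R3B (0.485), CRIM1 (0.490), NT5DC3 (0.496) and the heat shock gene HSPA1B (0.498), whose reads may be shared with HSPA1A. NPC1 averaged 1409 in silk co-cultures, 549 in silk monocultures, 330 in LN/PC co-cultures, 419 in LN/PC monocultures and 336 in fibroblasts. The other 9 genes stood farther from HMOX1 than these, ME1 nearest (0.658) and TXNRD1 farthest (1.099). Nearest to NQO1 were ZNF587 (0.256), TTYH3 (0.284), TRIM16 (0.285), which is on the list of NRF2 targets, EPB41L5 (0.291) and MSANTD4 (0.294). Of the other 9 genes GCLM (0.336) and ME1 (0.359) were nearest to NQO1.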

How the data were processed

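Poly-A RNA was made into directional libraries and sequenced by Illumina, per the labels' protocols. Salmon 1.10.3 and DESeq2 were used, per the submitters' processing notes. The sources used here name no genome build, annotation or settings. The deposited values are log2 values whose lowest value is 5.53664 in each library, as a variance-stabilizing transformation gives. They were inverted to normalized counts with that floor as the only constant; the median over 13121 genes of the ratio to the gene's geometric mean was then 1.01175 in all 15 libraries. Whole reads were not recovered (29.2% to 49.0% of values below 8 were whole to within 0.1), so count models were not used and read depth is not given.

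limma-trend (limma 3.58.1, R 4.3.3) was run on log2(value + 1) over genes that reached 10 in 3 or more of the fitted libraries: 1 fit of the 12 epithelial libraries, 1 of the fibroblast and epithelial monocultures. The pseudocount makes log2 differences of low genes too small. The fitting code was checked on simulated counts with the same dispersion for every gene. In these libraries the spread differed between genes and groups, so that check does not give the error rates here. The members and lists were chosen with earlier results of these data known. Of 112 other listed pathway entries 102 were tested. Named besides the 10 genes are NFE2L2, KEAP1 and BACH1, up to 4 called pathway genes per direction averaging 100 or more in whichever group was higher (largest change first), and the 5 nearest profiles; RBX1, SLC7A11, ALAS1, BLVRB, ABCB6, SLC48A1, UROS, UROD, HMOX2, SQSTM1, MAFF, GLRX and, on LN/PC, UGT1A6 were named beyond that rule after their values were seen. A gene that the rule names is not reported here. Fibroblast shares are medians over 112 genes averaging 1000 or more in fibroblasts and 100 times that of each epithelial monoculture.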

Additional observations from a re-analysis of the deposited data

Results flagged for a closer look

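The effect of adding fibroblasts differed between the membranes for 3 of the 10 genes, by the interaction term of limma with Benjamini-Hochberg adjustment over all genes, of which 3.15% had a positive and 4.59% a negative called interaction. Each of the 3 calls was lost when single libraries were left out, for HMOX1 any of 4, for FTH1 any of 4 and for GCLC 1, and FTH1 was also lost with the replicate number as a block (adjusted p = 0.0523). For HMOX1 the co-culture effect on silk exceeded that on LN/PC by 1.88 ± 0.47 log2 units (SE), for FTH1 by 1.61 ± 0.41 and for GCLC by 0.97 ± 0.23. HMOX1 averaged 716 ± 159 with and 366 ± 241 without fibroblasts on silk, and 116 ± 32.5 with and 191 ± 9.26 without them on LN/PC (SD, n = 3 each). Fibroblast RNA was estimated at 0.0239, 0 and 0.113% of the silk co-cultures and 13.9, 9.81 and 15.2% of the LN/PC co-cultures. Membrane, fibroblast RNA and way of harvest differed together between the 2 co-cultures and cannot be told apart. With the estimated fibroblast part subtracted the interaction was 1.96 ± 0.50 for HMOX1, 1.65 ± 0.39 for FTH1 and 0.91 ± 0.23 for GCLC.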

How the results depend on the processing

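Alternatives were a pseudocount of 10, no filter or a filter of 50, the deposited log2 values, upper quartile rescaling, robust moderation, only the 6 compared libraries, the fibroblast part subtracted, the replicate number as a block, and each library left out. Between the co-cultures of both membranes 10 of 10 genes were called under each, and 9 or 10 with 1 library left out; the OSGIN1 difference ranged from 0.89 to 3.22. With 1 library left out, called genes numbered 2 or 3 between the monocultures of both membranes, 2 to 4 for co-culture on silk, 1 to 3 for co-culture on LN/PC, 1 to 4 for the interaction and 2 to 5 for fibroblasts. With the fibroblast part subtracted 2 genes were called for co-culture on LN/PC, and the uncalled differences of GCLC, FTL and FTH1 there were 0.0064, -0.55 and -0.035. TXNRD1 then had a called interaction (1.29, adjusted p = 0.0484). Upper quartile rescaling turned the uncalled GCLM difference in fibroblasts to -0.012. Other uncalled differences changed sign when 1 library was left out. Between monocultures these were TXNRD1 (-0.37 to 0.033) and FTH1 (-0.36 to 0.089). For co-culture on silk it was ME1 (-0.25 to 0.064). For co-culture on LN/PC they were GCLC (-0.15 to 0.060), SRXN1 (-0.16 to 0.14), OSGIN1 (-0.88 to 0.40), FTL (-0.11 to 0.40) and FTH1 (-0.25 to 0.19). For the interaction it was ME1 (-0.041 to 0.32) and in fibroblasts GCLM (-0.045 to 0.17). The cause of these changes was not tested. HMOX1 was called for co-culture on silk with the deposited log2 values (adjusted p = 0.0423) and with only the 6 libraries (adjusted p = 0.0398). Over all genes, using only the 6 libraries gave 754 against 1685 calls between monocultures, 1174 against 545 for co-culture on silk and 1088 against 1807 for co-culture on LN/PC, and subtracting the fibroblast part gave 730 against 1116 interactions. With 1 library left out the counts over all genes were 695 to 3208 between monocultures (each of the 6 moved it by over 1.5 times), 3415 to 4745 against 5214 between co-cultures (lowest without LN/PC co-culture 1), 207 to 559 for co-culture on silk (lowest without silk co-culture 3; all but silk monoculture 1 moved it by over 1.5 times), 753 to 2007 for co-culture on LN/PC (over 1.5 times without LN/PC co-culture 1 or 3 or LN/PC monoculture 1) and 465 to 1359 interactions (over 1.5 times without LN/PC co-culture 1 or 3 or silk co-culture 3). Same-numbered libraries correlated at -0.254 to 0.189, so the replicate numbers were not taken as pairs. With the replicate block, called genes numbered 2 between monocultures, 10 between co-cultures, 3 for co-culture on silk, 1 for co-culture on LN/PC, 2 for the interaction and 4 for fibroblasts. It gained HMOX1 on silk (adjusted p = 0.0467) and lost the FTH1 interaction (adjusted p = 0.0523) and NQO1 in fibroblasts (adjusted p = 0.0566). 3 libraries per group limit the precision, and read depth is not given.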
